A study of Mus musculus with 36 samples.

Results

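The genes described here are the ligands and receptors of the 4 classical axon guidance systems: Eph receptors with their ephrins, semaphorins with plexins and neuropilins, Slits with Robo receptors, and netrins. The rule takes them by symbol alone, as protein-coding mouse genes of these families, and uses no measured value. The families were, however, chosen with earlier results of these data known. The rule found 64 genes among the 25460 with at least 1 transcript in the deposited tables: 14 Eph receptors, 8 ephrins, 20 semaphorins, 9 plexins, 2 neuropilins, 3 Slits, 4 Robos and 4 netrins. Of the 64 genes, 57 passed the filter on low values and were tested among 13572 genes. Epha1, Epha8, Ephb2, Sema3f, Sema4c, Robo3 and Ntn5 did not pass it.

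Guidance ligands are secreted or membrane-bound proteins that attract or repel growing axons and migrating cells through receptors on the cell surface. Ephrins signal in both directions between touching cells. Semaphorins act through plexins, with neuropilins as co-receptors for most secreted members, and Slits repel cells that carry Robo receptors. Netrins attract or repel through receptors outside these families. Glia of the adult brain also use these proteins at contacts with synapses, vessels and myelin, and in the olfactory bulb they guide sensory axons and the neuroblasts that arrive throughout life.

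The series holds 36 RNA-seq libraries from brain cells of C57/Bl6 mice, in 18 groups of 2 libraries. Each group is 1 of 6 cell populations, named Neg, A, B, C, D and E in the labels, from 1 of 3 regions: olfactory bulb, cortex or brainstem. The series' design text speaks of cell lines, whereas the sample labels give brain cells as the source and astrocyte as the cell type of every library, Neg included, and the labels give no age, treatment, allele, sorting antigen or meaning of Neg. They do not tell whether the 2 libraries of a group derive from different mice. The p-values therefore reflect the spread among libraries, part or all of which could be technical. Replicate numbers follow the deposited order and pair nothing across groups. A to E are called the lettered populations below.

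Levels are FPKM (fragments per kilobase of transcript, scaled by the mapped fragments of a library) summed over a gene's transcripts, with each library rescaled to the same total of nuclear FPKM. Before rescaling these totals ran from 23005 to 163132, and between 2133 and 10394 genes reached 1 FPKM. Differences are between group means of log2(scaled FPKM + 1), a scale on which changes of weakly expressed genes appear smaller than they are. They were tested with limma over all 13572 genes, and a gene was called at a Benjamini-Hochberg adjusted p under 0.05. The ratio of deposited coverage to FPKM gives a relative depth, which was 0.0695 in brainstem E replicate 1, 0.317 in replicate 1 of bulb E and 1.17 or more in the others.

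Astrocyte markers were present in every library, with a summed level of 15 genes between 650.5 and 2671 in the lettered libraries and between 521 and 885 in Neg. Markers of other cells were present as well. The 10 markers of mature oligodendrocytes summed to between 621 and 18218 in the lettered libraries and reached 22624 in a brainstem Neg library. The libraries labelled brainstem D replicate 2 and cortex E replicate 2 stood apart from their regions. Across all genes tested their closest library was olfactory bulb C replicate 2 (Pearson r of 0.762 and 0.783, across genes), and r with the other library of their own group was 0.646 and 0.609. Replicate r was under 0.646 in 5 groups besides cortex E, down to 0.521 in brainstem E, and 4 other libraries were closest to a library of another region, though none of these to one of the bulb. In the library labelled brainstem D replicate 2 the hindbrain and spinal cord genes summed to 0.2, below the lowest of the other lettered brainstem libraries (0.4), and genes of the olfactory bulb interneuron lineage summed to 78.1, the highest of the lettered brainstem libraries. That interneuron sum was 126.6 in the library labelled cortex E replicate 2, the highest of the lettered cortex libraries. It did not separate them cleanly: the other lettered libraries reached 98.8 in cortex and 52.3 in brainstem. A brainstem Neg library stood at 90.9, above brainstem D replicate 2. Results on regions are therefore given with and without the pair of brainstem D replicate 2 and cortex E replicate 2. This pair was picked in these same data for its likeness to the bulb, over all genes tested, members included. Leaving it out therefore favours larger differences between bulb and the other regions, and results without it are no independent support.

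The promoters of Efna5, Epha5 and Efnb2 are shown because these genes carry the clearest regional differences described below. Each is the RefSeq sequence (GRCm38.p6) from 250 bases before to 50 bases after the annotated start, in the direction of the gene. Capitals mark 3 motifs wherever they occur on either strand. The first is GGGCGG, the core bound by Sp1-type factors. The second is TAATTA, the core of many homeodomain sites. The third is the TATA box, TATAAA. Efna5 lies on the minus strand and its promoter is chr17:62881268-62881567. The Epha5 promoter, also on the minus strand, is chr5:84417333-84417632, and that of Efnb2, again on the minus strand, is chr8:8661193-8661492.
Efna5: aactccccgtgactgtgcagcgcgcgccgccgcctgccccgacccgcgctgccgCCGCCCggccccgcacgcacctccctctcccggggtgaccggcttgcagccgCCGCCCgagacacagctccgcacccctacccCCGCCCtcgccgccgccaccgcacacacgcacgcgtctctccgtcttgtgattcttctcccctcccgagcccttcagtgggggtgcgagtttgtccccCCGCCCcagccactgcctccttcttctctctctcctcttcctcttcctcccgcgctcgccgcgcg
Epha5: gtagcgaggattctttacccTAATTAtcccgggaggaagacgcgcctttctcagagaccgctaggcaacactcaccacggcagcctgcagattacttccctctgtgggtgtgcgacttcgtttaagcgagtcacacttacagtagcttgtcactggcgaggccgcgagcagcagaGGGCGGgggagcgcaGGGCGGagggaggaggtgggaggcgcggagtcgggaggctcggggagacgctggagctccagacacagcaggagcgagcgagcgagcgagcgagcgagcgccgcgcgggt
Efnb2: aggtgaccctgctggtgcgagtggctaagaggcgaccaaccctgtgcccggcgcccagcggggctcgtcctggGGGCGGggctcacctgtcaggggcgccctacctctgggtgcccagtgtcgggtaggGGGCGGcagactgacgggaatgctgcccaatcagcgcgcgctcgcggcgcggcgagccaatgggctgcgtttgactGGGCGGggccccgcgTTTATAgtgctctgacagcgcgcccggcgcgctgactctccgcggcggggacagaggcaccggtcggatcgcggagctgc
The window of Efna5 held 4 matches to GGGCGG, read as its complement, with 73.3% G+C and 38 CG pairs. Epha5 held 2 matches to GGGCGG and 1 to TAATTA, with 64.3% G+C and 30 CG pairs. Efnb2 held 3 matches to GGGCGG and 1 to TATAAA, with 72.3% G+C and 35 CG pairs. Of the 64 genes, 56 had at least 1 promoter in the RefSeq table, 72 promoters in all. Their median G+C content was 64.0%, against 52.7% over 32851 promoters, with a median of 18 CG pairs against 7. GGGCGG was in 70.8% of the guidance promoters and in 35.7% of all promoters. For TAATTA the shares were 4.17% and 5.29%, and for TATAAA they were 2.78% and 13.6%. A match is a description of these letters and not a binding site.

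Semaphorins and plexins held the highest levels. Over the 30 lettered libraries 34 of the 64 genes had a mean of 1 scaled FPKM or more, and 5 reached a mean of 5: Sema6d, Plxnb1, Sema6a, Sema5b and Efnb3. Sema6d, a transmembrane ligand of class A plexins, was the highest at 18.4 ± 6.81 (SD, n = 30), and it was the only member at 1 or more in 30 of 30 lettered libraries. Plxnb1, the receptor of Sema4d, followed at 11.3 ± 6.90 (SD, n = 30), from 0.774 to 22.2. Sema6a, a transmembrane semaphorin known from oligodendrocytes and neurons, had a median of 5.66 and ran from 0.0945 to 51.9. The mean of Sema5b, 7.76, rests on a single library: cortex D replicate 1 stood at 128, replicate 2 of the same group was listed at 0, and the median was 1.73.

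**Figure D1:**
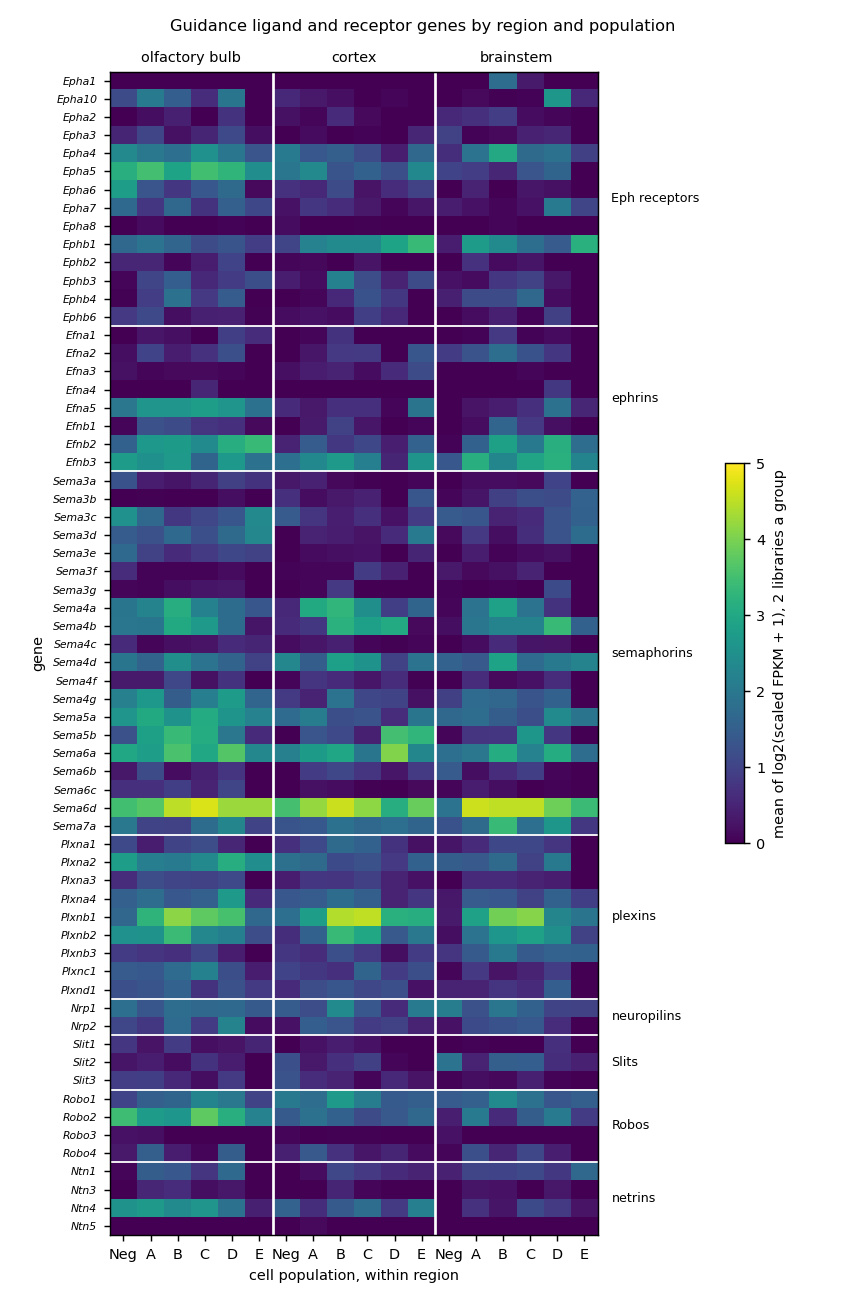
Mean of log2(scaled FPKM + 1) of the 64 guidance genes (rows, by family) in the 18 groups of 2 libraries (columns: Neg and A to E within olfactory bulb, cortex and brainstem), from dark (0) to yellow (5). Sema6d and Plxnb1 form the brightest rows, and Epha5, Efna5 and Robo2 are brighter in the olfactory bulb block.

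Among the Eph receptors, Ephb1 (mean 4.49, median 3.02), Epha5 (4.36, median 1.97) and Epha4 (2.70, median 2.33) led over the lettered libraries. Among the ephrins, Efnb3 had a mean of 5.84 and a median of 4.78, Efnb2 a mean of 4.31 and Efna5 a mean of 2.35. Among the plexins, Plxnb2 (4.76) and Plxna2 (3.07) followed Plxnb1. Nrp1, a co-receptor of secreted semaphorins and of VEGF, had a mean of 2.06 and Nrp2 of 1.32. Robo2 (4.13) and Robo1 (2.78) were the Robos with the highest means, and Robo1 was at 0 in none of the 30 libraries.

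Slits were low. Slit2 had a mean of 0.614, and no Slit reached a mean of 1. Ntn4, a netrin of basement membranes, had a mean of 2.31 and Ntn1, the chemoattractant of the ventral midline, 1.10. Over the Ntn1 locus, 1 transcript assigned to no gene had a mean of 0.755 FPKM as deposited, beside 1.04 for Ntn1, whose level could be too low. Ntn3 was at 0 in 20 of 30 libraries. In all, 12 of the 64 genes were at 0 in 15 or more lettered libraries. In bulk libraries, fewer cells of a type and less RNA per cell cannot be told apart.

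The comparison of regions asked which genes differ between olfactory bulb, cortex and brainstem over the lettered populations. Efna5, Epha5 and Sema3e were higher in the olfactory bulb than in both other regions. Efnb2 and Epha10 were higher than in cortex, and Robo2, Ntn4, Plxna2 and Plxnc1 were higher than in brainstem. Against cortex 5 of 57 members were called, all higher, where 3.54% of all genes were called (2.85% higher, 0.693% lower). Against brainstem 7 of 57 were called, all higher, where 6.34% of all genes were called (5.46% higher, 0.877% lower). The median difference of the members was 0.221 against cortex and 0.256 against brainstem, beside 0.162 and 0.232 for all genes tested. No member was called between cortex and brainstem, where limma called 2.06% of all genes (1.63% higher, 0.435% lower); 8 of 57 members had an unadjusted p under 0.05 there, beside 1629 of all 13572 genes.

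Efna5 encodes a membrane-anchored ephrin that binds EphA receptors. In the 10 lettered olfactory bulb libraries it ran from 1.81 to 7.58 scaled FPKM, with a median of 5.10. In cortex the median was 0.529 (0 to 8.18) and in brainstem 0.582 (0 to 5.12). The highest value of each of those regions came from the library that stood apart: without cortex E replicate 2 and brainstem D replicate 2, cortex ran from 0 to 1.25 and brainstem from 0 to 1.22, and neither range overlapped that of the olfactory bulb. The difference from cortex was 1.76 ± 0.31 (SE) with an adjusted p of 0.000788 in limma, and that from brainstem 1.74 ± 0.31 with 0.000829. Without the pair the differences were 2.01 and 1.89. Because the pair was picked for its bulb genes, the wider gap without it follows in part from that choice and is no separate support.

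The Efna5 values by population within the olfactory bulb were 3.27 and 7.58 in A, 5.25 and 4.94 in B, 6.14 and 5.68 in C, 4.80 and 5.45 in D, and 1.81 and 3.82 in E. Every population of the bulb lay above 1.25, a bound of cortex that holds only without cortex E replicate 2, which was picked for its likeness to the bulb. With that library, 0 of 10 bulb libraries lay above every cortex library. The share of all genes that separate in this way is not given here. The Neg libraries carried no weight in the region differences, but they entered the estimate of the spread used in the tests. Their Efna5 values were 4.82 and 1.72 in olfactory bulb and 0.291 and 0.794 in cortex, and were listed as 0 in both brainstem libraries.

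Epha5 encodes a receptor tyrosine kinase for ephrin-A ligands such as Efna5. It ran from 3.29 to 14.5 in the olfactory bulb (median 7.23), from 0.425 to 16.6 in cortex (median 1.73) and from 0 to 5.37 in brainstem (median 0.782). Cortex E replicate 2 was again the highest cortex library, and brainstem D replicate 2 the highest brainstem library. Without them, cortex reached 5.06, within the range of the bulb, and brainstem 1.89, below it. Both were picked for their likeness to the bulb, and with them 9 of 10 bulb libraries lay above every brainstem library. The difference was 2.25 ± 0.37 from brainstem (adjusted p = 0.000294 in limma) and 1.38 ± 0.37 from cortex (adjusted p = 0.0281), and without the pair 2.46 and 1.74. Epha5 in the Neg libraries was 6.63 and 9.10 in bulb, 2.02 and 4.02 in cortex, and 0.505 and 1.69 in brainstem.

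**Figure D2:**
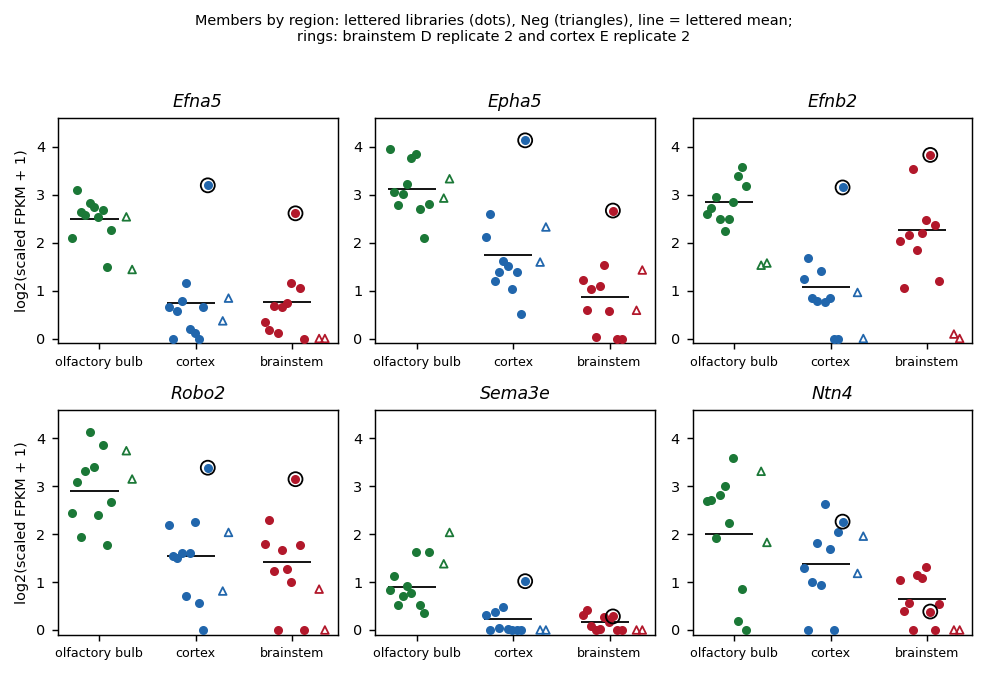
log2(scaled FPKM + 1) of 6 guidance genes by region: filled dots are the 10 lettered libraries of a region with their mean as a line, open triangles the 2 Neg libraries, and black rings the libraries labelled brainstem D replicate 2 and cortex E replicate 2. For Efna5 and Robo2 the ringed libraries are the highest of their regions, and all 10 olfactory bulb dots of Efna5 lie above the other cortex and brainstem dots.

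Efnb2, a transmembrane ephrin that binds EphB receptors and Epha4, was higher in the olfactory bulb than in cortex. It ran from 3.73 to 11.1 in the olfactory bulb (median 5.91), from 0 to 7.90 in cortex (median 0.796) and from 1.07 to 13.3 in brainstem (median 3.53). Without cortex E replicate 2, at 7.90, cortex reached 2.20 and lay below every bulb library. With it, 3 of 10 bulb libraries lay above every cortex library. That library was picked for its likeness to the bulb, so results without it are no separate support. The difference between bulb and cortex was 1.78 ± 0.34 (adjusted p = 0.00194 in limma). Efnb2 was 1.20 ± 0.34 lower in cortex than in brainstem, which did not pass the test (adjusted p = 0.0657). It did pass without the pair, at -1.38 ± 0.30 (adjusted p = 0.00797), and on the deposited scale (adjusted p = 0.0454).

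Sema3e, a secreted semaphorin that signals through Plxnd1, was low throughout but higher in the bulb than in the other regions. Its median was 0.748 in the bulb (0.285 to 2.09), 0.0245 in cortex (0 to 1.03) and 0.0878 in brainstem (0 to 0.343). The differences were 0.68 ± 0.19 from cortex (adjusted p = 0.0443 in limma) and 0.75 ± 0.19 from brainstem (adjusted p = 0.0174). In Neg, Sema3e was at 1.61 and 3.10 in the bulb and at 0 in all 4 libraries of the other regions. Epha10, a kinase-inactive Eph receptor, had a bulb median of 1.53 and a cortex median of 0.0175 (difference 1.10 ± 0.31, adjusted p = 0.0446), but 3 bulb libraries, among them both of E, lay below that cortex median. Of 46 alternatives, 25 lost the Sema3e call against cortex and 33 the Epha10 call, and both were lost with the series of numbers in the sample titles as a term (adjusted p of 0.0598 and 0.0683 in limma).

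Robo2, the repulsive receptor for Slits, was higher in the bulb (2.44 to 16.5, median 6.43) than in brainstem (0 to 7.87, median 1.801), by 1.49 ± 0.41 (adjusted p = 0.0268 in limma). Against cortex (0 to 9.47, median 1.98) the difference was 1.37 ± 0.41 with an adjusted p of 0.0604. Without the pair of libraries that stood apart it was 1.71 ± 0.36 with an adjusted p of 0.00276, so the call against cortex turns on them. Its ligands were not called between any regions.

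Ntn4 had a median of 4.58 in the bulb and 0.466 in brainstem (difference 1.36 ± 0.38, adjusted p = 0.0272 in limma). Within the bulb it was uneven: D replicate 1 stood at 11.0, while D replicate 2 was at 0.140 and the E libraries at 0.821 and 0. Plxnc1, the receptor of Sema7a, had medians of 1.68 and 0.477 in bulb and brainstem (0.88 ± 0.25, adjusted p = 0.0283). Plxna2, a receptor of class 6 semaphorins, had medians of 4.09 and 1.37 (1.19 ± 0.36, adjusted p = 0.0449). The Plxna2 call was lost in 30 of 46 alternatives. With the series of numbers in the sample titles as a term, Plxna2 (adjusted p = 0.0720 in limma), Robo2 (0.0775), Plxnc1 (0.0867) and Ntn4 (0.0968) all missed the threshold against brainstem.

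Leaving out brainstem D replicate 2 and cortex E replicate 2 raised the counts from 5 to 12 members against cortex, where 6.40% of all genes were then called, and from 7 to 11 against brainstem, where 8.99% were called. The 5 and 7 genes named above were called in both fits. Added as higher in bulb than cortex were Plxna2, Robo2, Sema3c, Sema3d and Sema5a, and added as lower were Ephb1, at -1.50 ± 0.37 (adjusted p = 0.0112 in limma), and Efna3. Added against brainstem were Epha6 and Sema5a as higher and Plxnb3 and Sema3b as lower. Ephb1, an EphB receptor, had been at -1.28 ± 0.37 with an adjusted p of 0.0505 with all libraries. Because the pair left out was picked for its bulb genes, that choice favours more calls for the bulb, among members and all genes alike.

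**Figure D3:**
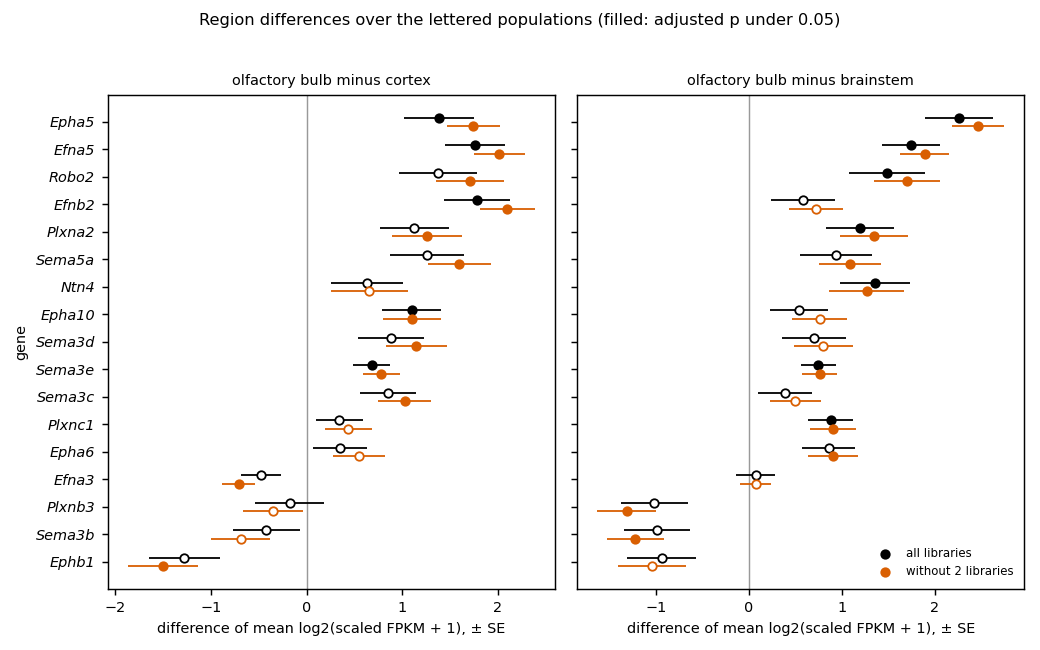
Difference of mean log2(scaled FPKM + 1) between olfactory bulb and cortex (left) and between olfactory bulb and brainstem (right), with SE, for the 17 members called in either comparison with all libraries (black) or without brainstem D replicate 2 and cortex E replicate 2 (orange). Filled points passed an adjusted p under 0.05; Efna5, Epha5 and Sema3e are filled in both panels.

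Markers of immature and bulb-type neurons moved with these regional differences. Of 10 neuroblast markers, 8 were higher in bulb than cortex and 7 higher than in brainstem, and of 12 genes of the bulb interneuron lineage 11 were higher in each comparison. The summed neuroblast markers ran from 17.7 to 138 in the lettered bulb libraries. They ran from 0.6 to 34.0 in cortex and from 2.4 to 24.8 in brainstem without the pair of libraries, in which they were 44.5 (cortex E replicate 2) and 44.1 (brainstem D replicate 2). Dlx2, Dlx6 and Igfbpl1 were at 0 in both cortex Neg libraries. The 10 markers of olfactory ensheathing glia summed to between 1902 and 3870 in bulb and between 104 and 1087 in cortex without its odd library, and 6 of them were called higher in bulb than cortex. Against brainstem 8 of 13 neuron markers were higher in bulb and 1 was lower (median 1.501), 6 of 10 markers of mature oligodendrocytes were lower (median -1.73), and 4 of 7 markers of ependyma and choroid plexus were lower (median -1.84). Against cortex 2 of the 13 neuron markers were higher and 2 of the 10 oligodendrocyte markers lower. Their part in the regional differences was not tested.

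The comparison of the lettered populations with Neg asked which genes separate the labelled populations from the unlettered one. Plxnb1, Efnb2 and Sema6d were higher in the lettered libraries and no member was lower. These 3 of 57 members stand beside 4.32% of all genes called (2.40% higher, 1.92% lower). The median difference of the members was 0.169, beside 0.138 for all genes tested.

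Plxnb1 had a median of 12.2 in the 30 lettered libraries (0.774 to 22.2) and of 1.24 in the 6 Neg libraries (0.260 to 4.77). Its Neg values were 1.31 and 3.32 in olfactory bulb, 4.77 and 1.18 in cortex, and 0.260 and 0.320 in brainstem. The ranges overlapped, and 22 of 30 lettered libraries lay above every Neg library. The difference was 2.02 ± 0.39 (SE) with an adjusted p of 0.00256 in limma.

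Sema6d had a median of 19.1 in the lettered libraries and of 7.41 in Neg, where it ran from 2.01 in a brainstem library to 14.8 in an olfactory bulb library. The difference was 1.18 ± 0.33 (adjusted p = 0.0354 in limma). Efnb2 had a median of 3.66 against 0.507 in Neg, with a difference of 1.37 ± 0.34 (adjusted p = 0.0195). Both Neg bulb libraries held Efnb2 (1.89 and 1.98), and the brainstem Neg libraries were at 0.0667 and 0.

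The Neg libraries had lower FPKM totals and more oligodendrocyte transcripts than most others. The 10 markers of mature oligodendrocytes summed to between 3089 and 22624 in Neg, with a median of 9341, against a median of 2461 in the lettered libraries. Of 15 astrocyte markers 10 were higher in the lettered libraries, and of 13 neuron markers 4 were higher in Neg. The part of these differences in the 3 calls was not tested. On the deposited scale, where the median of all genes was 0.505, 15 members were called higher and 20.4% of all genes were called. Without the 8 libraries under 5000 genes, which hold both brainstem Neg libraries, Plxnb1 was at 1.52, Efnb2 at 0.829 and Sema6d at 0.545. Each then missed the threshold, and the share of all genes called was also below that of the fit with all libraries. Efnb2 and Sema6d also missed the threshold when olfactory bulb Neg replicate 1 (1.36 and 1.01), its replicate 2 (1.38 and 1.35), cortex Neg replicate 2 (1.21 and 1.05) or brainstem Neg replicate 2 (1.36 and 1.07) was left out, and Sema6d without cortex C replicate 2 (1.16). All 6 Neg libraries belong to the first of 2 series of numbers in the sample titles, and 15 of the 30 lettered libraries to the second. When the fit held that series as a term, Plxnb1 alone of these 3 remained called, and Efnb2 was at 1.24 (adjusted p = 0.121 in limma) and Sema6d at 1.20 (adjusted p = 0.117).

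**Figure D4:**
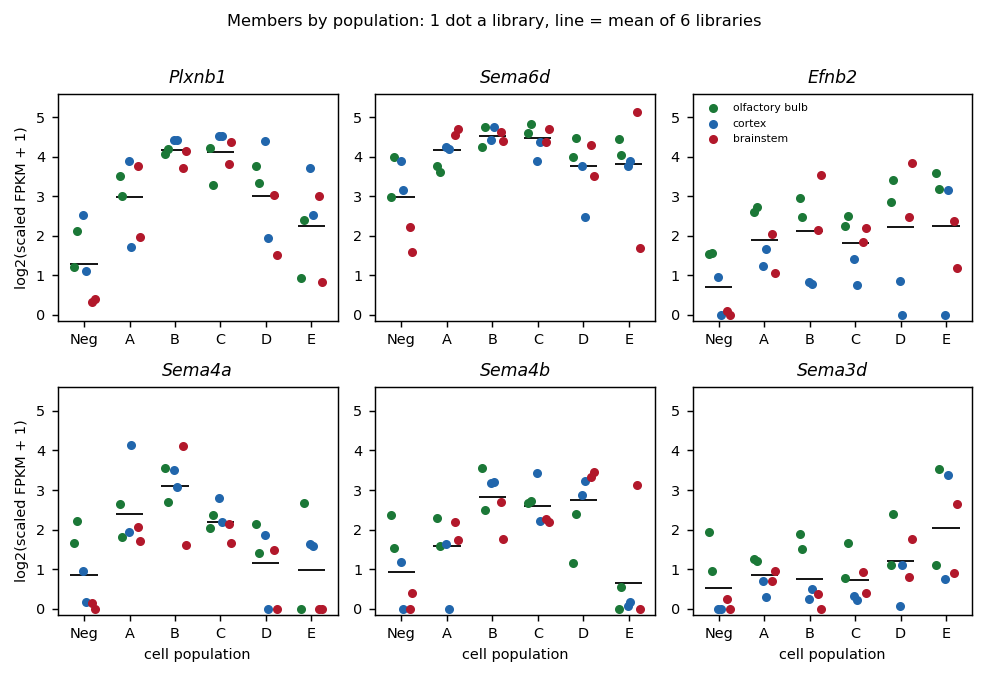
log2(scaled FPKM + 1) of 6 guidance genes by population, with 1 dot for each library coloured by region and a line at the mean of the 6 libraries. Plxnb1 and Sema6d have their lowest means in Neg, Sema4a its highest in B, and 5 of the 6 E libraries of Sema4b lie near 0.

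Each lettered population was then compared with the mean of the other 4, to ask which genes set a population apart. B and E gave calls among the members, and A, C and D gave none.

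In population B, Sema4a and Efnb1 were higher, 2 of 57 members, beside 6.65% of all genes called (5.54% higher, 1.11% lower). Sema4a, a transmembrane semaphorin with known roles in immune cells, ran from 2.04 to 16.2 in the 6 B libraries (median 8.91), against a median of 2.58 in the other 24. The pairs were 10.7 and 5.43 in olfactory bulb, 10.4 and 7.39 in cortex, and 16.2 and 2.04 in brainstem, and the difference was 1.41 ± 0.39 (adjusted p = 0.0260 in limma). Cortex A replicate 2, at 16.5, was higher than any B library. Efnb1, a ligand of EphB receptors, had a median of 1.23 in B and 0.180 in the others, and all 6 B libraries lay above that median (0.85 ± 0.20, adjusted p = 0.00883). Plxnb2 (1.10 ± 0.39, adjusted p = 0.0892) and Plxnb1 (1.08 ± 0.40, adjusted p = 0.109) did not pass.

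All 15 microglia and macrophage markers were higher in B, with sums between 714 and 1367 against 44.1 to 553 in the other lettered libraries. Of 13 neuron markers 6 were lower in B and none higher. Of 8 markers of pericytes and smooth muscle 2 were higher, as was 1 of 8 of oligodendrocyte precursors. Of 10 markers of mature oligodendrocytes 2 were higher and 2 lower, and of 15 astrocyte markers 1 was higher and 1 lower. Relative depth ran from 2.72 to 4.08 in B and reached 2.38 at most in the other libraries. The part of these cell types and of depth in the differences of Sema4a and Efnb1 was not tested. Sema4a missed the threshold without olfactory bulb B replicate 1 (1.26), cortex B replicate 1 (1.33) or 2 (1.48), or brainstem B replicate 1 (0.993). Efnb1 missed it without olfactory bulb B replicate 1 (0.649), cortex B replicate 2 (0.747) or brainstem B replicate 2 (0.653). Both also missed it when the fit held the series of numbers in the sample titles as a term (1.32 for Sema4a and 0.900 for Efnb1).

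In population E, 9 members were lower and 1 was higher, beside 10.7% of all genes called (9.22% lower, 1.46% higher). The lower genes were the semaphorins Sema4b and Sema4a, the receptors Plxnb1, Plxna1, Plxna3, Nrp2, Ephb4 and Robo4, and the ligand Efnb1. The higher gene was Sema3d, a secreted semaphorin. The median difference of the members was -0.390, beside -0.277 for all genes tested.

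Sema4b, a transmembrane semaphorin, fell by 1.78 ± 0.36 on the log2 scale (adjusted p = 0.00322 in limma). Its E values were 0 and 0.464 in olfactory bulb, 0.0537 and 0.123 in cortex, and 7.71 and 0 in brainstem, against a median of 4.45 in the other 24 lettered libraries. The exception at 7.71 was brainstem E replicate 1, the shallowest library of the series. Plxnb1 had a median of 4.51 in E and 13.0 in the others (-1.33 ± 0.40, adjusted p = 0.0325). Nrp2, a co-receptor of secreted semaphorins, ran from 0 to 0.544 in E with a median of 0.125, against a median of 1.22 (-1.01 ± 0.27, adjusted p = 0.0186).

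Ephb4, the EphB receptor of vessels and a partner of Efnb2, was listed at 0 in all 6 E libraries, with a median of 0.855 in the others (adjusted p = 0.0197 in limma). Robo4, known from endothelium, was at 0 in 5 of 6 E libraries. Of the 10 endothelial markers 1 was called lower in E, and none of the 10 differences lay above 0 (median -0.833). Plxna1 and Plxna3, plexins that pair with neuropilins as receptors of secreted semaphorins, had E medians of 0.0129 and 0.00917, beside 1.10 and 0.860 in the other libraries. Sema4a had a median of 1.00 in E and 3.30 in the others.

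Sema3d was 1.14 and 10.5 in olfactory bulb E, 0.667 and 9.41 in cortex E, and 0.852 and 5.22 in brainstem E. The replicate 2 libraries of E held the high values in each region, and the range of the other lettered libraries was 0 to 4.21. The difference was 1.16 ± 0.35 (adjusted p = 0.0344 in limma), and it fell to 0.76 with an adjusted p of 0.154 without the pair of libraries that stood apart. It also missed the threshold without olfactory bulb E replicate 2 (0.757), cortex E replicate 2 (0.722) or brainstem E replicate 2 (0.871).

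Depth, number series and other cell types moved with population E. All 12 D and E libraries belong to the second of 2 series of numbers in the sample titles, with 3 libraries of A and B; the labels do not call this series a batch. With a term for it no member was called in E and 0.0442% of all genes were, and since every E library belongs to that series, E and the series cannot be told apart beyond what this fit allows. The shallowest libraries, brainstem E replicate 1 and bulb E replicate 1, both belong to it. Without these 2 libraries 3 of the 10 calls remained (Sema4b, Plxnb1 and Sema3d), and Nrp2 (adjusted p = 0.0713 in limma), Sema4a (0.249), Ephb4 (0.0642), Plxna1 (0.0663), Efnb1 (0.148), Plxna3 (0.0917) and Robo4 (0.125) missed the threshold, while Plxnb2, Sema4g, Sema6a and Sema6d passed it as lower; 9.11% of all genes were then called. Microglia markers were lower in E (11 of 15 called), as were 4 of 8 markers of oligodendrocyte precursors, 3 of 7 of fibroblasts and meninges, 3 of 5 of blood cells and 1 of 7 of ependyma and choroid plexus. Neuron markers went the other way, with 4 of 13 called higher and none lower (median 0.768). Of 15 astrocyte markers 3 were lower and 1 higher, and of 10 markers of olfactory ensheathing glia 1 was lower and 2 higher. The part of these cell types in the calls was not tested. The mature oligodendrocyte markers had a median sum of 4840 in E and of 4822 in A, beside 2461 in all lettered libraries, E and A included. Of these 10 markers 2 were called higher in E and 1 lower. Fewer than 10 members were called when either bulb E library, either cortex E library or brainstem E replicate 2 was left out. The share of all genes called in those fits is not given here, so a loss among members and a loss among all genes cannot be told apart. On the deposited scale 25 members were lower and none higher, with 42.6% of all genes called and a median of all genes of -0.658.

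For populations A, C and D, limma called 0 members, beside 0.00737% of all genes in A and 0.0221% in C, all of them higher, and 0.0589% in D (0.0368% higher, 0.0221% lower). At an unadjusted p under 0.05 there were 1, 4 and 7 members (1.75%, 7.02% and 12.3% of the 57), beside 4.27%, 8.50% and 7.50% of all genes. The members that differed most were Robo4 (0.91 ± 0.25, adjusted p = 0.834) and Sema4b (-0.63 ± 0.36) in A, Plxnb1 (1.03 ± 0.40, adjusted p = 0.431) and Sema4b (0.64 ± 0.36) in C, and Epha10 (1.10 ± 0.32, adjusted p = 0.367) and Sema6a (1.05 ± 0.41) in D. In C, 4 members were called on the deposited scale, where 7.34% of all genes were called and the median of all genes was 0.390. An F test asked whether differences between populations depended on region. It called no member, beside 0.0442% of all genes, and its lowest member p was 0.0315 before adjustment, for Sema5b.

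Guidance genes outside these families were read from a list of 44 further ligands and receptors, 42 of them tested, and a list of 52 intracellular effectors, all tested. Between bulb and cortex 4 of the 42 were higher (2.85% of all genes): Slitrk1 (2.35 ± 0.38, adjusted p = 0.000330 in limma), Met, Flrt3 and Islr2. Against brainstem (5.46% of all genes higher, 0.877% lower) Slitrk1, Ntng1, Met and Islr2 were higher, and Unc5b, a netrin receptor, was lower (-1.65 ± 0.35, adjusted p = 0.00396), as was Cntn2. Among the effectors Tiam1, an activator of Rac, was higher in the bulb than in cortex (1.79 ± 0.36) and than in brainstem (1.91 ± 0.36). Dpysl3 and Dpysl4, of the collapsin response mediator family, were also higher in both comparisons. Chn1 was lower in bulb than cortex, and Srgap3, which acts downstream of Robo receptors, was higher in bulb and in cortex than in brainstem.

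Between the lettered populations and Neg, where 2.40% of all genes were higher, 4 of the 42 were higher (Rgma, Vegfa, Slitrk2 and Ptprs, the largest at 1.86 ± 0.54 for Rgma), and of the effectors Ptpn11 was lower. In B (5.54% of all genes higher), Vegfa, Slitrk2, Srgap2 and Fes were higher. In E (9.22% of all genes lower, 1.46% higher), Ptprf, Bsg and Gpc1 were lower, 6 of 52 effectors were lower, led by Rras (-1.76 ± 0.38), and Gsk3b was higher. Between cortex and brainstem (1.63% of all genes higher, 0.435% lower) Hgf and Srgap3 were higher and Unc5b lower.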

How the data were processed

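Base calls were converted with bcl2fastq 1.8.3, aligned to mm10 with TopHat and quantified with Cufflinks, per the submitters' processing notes (versions of TopHat and Cufflinks not given in the sources used here). Per the file headers, each deposited table lists 63241 transcripts with FPKM and coverage, both Cufflinks estimates, to which a count model does not apply. Coverage as deposited served only to read relative depth. Per the labels' protocols, cDNA was primed with random and oligo d(T) primers without marking the strand, and reads of antisense or overlapping genes may be mixed.

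Transcripts were assigned by position to GENCODE vM21 genes, at an overlap score of 0.5 or more and a lead of 0.1; partial transcripts were assigned by a shared end. This placed 83.9% of transcripts and between 90.6% and 97.1% of nuclear FPKM. FPKM was summed per gene, and each library was rescaled to the median nuclear total of 90712. Genes at 1 scaled FPKM or more in 2 or more libraries were tested with limma 3.58.1 in R 4.3.3 on log2(scaled FPKM + 1): 18 group means, a variance trend, 18 residual degrees of freedom, two-sided, Benjamini-Hochberg over 13572 genes. Regions and populations were weighted equally. The procedure was tested on simulated data with differences added to the lettered bulb libraries. Against cortex it called 29 of 100 genes with a log2 difference of 1, 87 of 100 with 2, and 7 unchanged genes. A gene that was not called may therefore still differ. Alternatives were the deposited scale, quantile normalization, a pseudocount of 0.1, no filter, the leading transcript of each gene, array weights, a number series term, and leaving out libraries.

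The members and lists were chosen with earlier results of these data known. Called members were named, up to 10 in each direction; where none was called, the 2 that differed most; for levels, the 2 or 3 highest of each class; of other lists, up to 4 called genes. Sema5b, Sema7a and Epha1 in single libraries, and members called under an alternative, were named after their values were seen.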

Additional observations from a re-analysis of the deposited data

How the results depend on the processing

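No called member changed direction under any of 46 alternatives, which comprise 9 planned settings, 1 setting added after seeing the data (leaving out the 8 libraries under 5000 genes) and leaving out each of 36 libraries. In all 46, Efna5 and Efnb2 remained called between olfactory bulb and cortex, and Efna5, Epha5 and Sema3e between bulb and brainstem; Plxnb1 against Neg and Sema4b in E remained in 45. Less firmly held were Epha10 (13 of 46) and Sema3e (21) against cortex, Plxna2 against brainstem (16), Epha5 against cortex (34), Robo2 and Ntn4 against brainstem (33 each), Plxnc1 against brainstem (36), Sema6d against Neg (38), and Efnb1 (11), Robo4 (11), Sema4a (20), Plxna3 (33), Nrp2 (37), Sema3d (37), Plxnb1 (38) and Plxna1 (39) in E. The other called members remained in 40 or 41. Counts of called members that moved by over 1.5 times are given next, though a count that moved less could hold other genes: 1 of the 3 calls against Neg remained with the number series term and 3 of the 10 in E without the 2 shallowest libraries. On the deposited scale they were 15 against Neg, 12 in B, 4 in C, 25 in E and 1 between cortex and brainstem. The shares of all genes called there were 20.4%, 15.8%, 7.34%, 42.6% and 1.76%, in that order. With quantile normalization the member counts were 1 in B, 4 in E and 1 between cortex and brainstem. Of all genes, 565 were then higher and 263 lower in B, 313 and 781 in E, and 191 and 76 between cortex and brainstem. The pseudocount of 0.1 gave 1 in B and the leading transcript 6 in E. Array weights gave 1 in C, 1 in E and 9 between bulb and cortex. The number series term gave 0 in B, 0 in E, and 3 for the bulb against each other region. With it, 4.85% of all genes were called against Neg, 2.37% in B and 0.0442% in E. For the bulb the shares were 3.16% against cortex and 3.63% against brainstem. Without brainstem D replicate 2 and cortex E replicate 2 there were 4 in E, 12 and 11 for the bulb against cortex and brainstem, and 2 between cortex and brainstem. Without the 2 shallowest libraries the member counts rose against Neg, in B and between bulb and cortex, as did the shares of all genes called. Without the 8 libraries under 5000 genes they fell against Neg, in E and for the bulb against each other region. The shares of all genes called fell there as well, except between bulb and brainstem. The F test was not run without these 8 libraries. Leaving out single libraries gave 1 to 6 against Neg (1 without either bulb Neg library or cortex Neg replicate 2, 6 without cortex D replicate 2, 5 without brainstem E replicate 2), 0 to 4 in B (4 without cortex D replicate 1), 0 to 1 in D (1 without cortex or brainstem D replicate 1), 1 to 12 in E, 2 to 12 between bulb and cortex (12 without cortex E replicate 2), 3 to 9 between bulb and brainstem (3 without brainstem B replicate 2 or bulb C replicate 1), 0 to 2 between cortex and brainstem (2 without cortex E replicate 2), and 0 to 1 in the F test (1 without cortex D replicate 2). Where a call was lost the cause was not tested. For the small pseudocount, the leading transcript, array weights and the other fits with libraries left out, shares of all genes are not given beside these counts. Those counts alone do not tell a change of the members from a change of all genes. No paired analysis was possible because the labels carry no replicate numbers. Low depth limits replicate 1 of E in bulb and brainstem.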

Other observations

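Some guidance genes were high in a single library. Sema5b, a transmembrane semaphorin, stood at 128 scaled FPKM in cortex D replicate 1, at 18.3 in brainstem C replicate 2 and at 13.5 in cortex E replicate 1; its leading transcript row is 1488 bases long and holds 71.5% of its FPKM. Sema7a, the glycolipid-anchored ligand of Plxnc1, reached 30.1 in brainstem B replicate 2 and 6.70 or less in the other 35 libraries. Epha1 was at 11.1 in that same library, at 0.227 and 0.345 in brainstem C and at 0 in the other 33. Sema6a was at 51.9 in cortex D replicate 2 and at 4.18 in replicate 1. Epha10 was at 12.4 in brainstem D replicate 2, 1 of the libraries that stood apart. Slit2, the ligand of Robo receptors, was at 12.9 in brainstem Neg replicate 1 and at 0 in replicate 2.

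Sema3b, a secreted semaphorin, was uneven between the libraries of the brainstem groups. It stood at 2.67 in B replicate 1, 2.90 in C replicate 1, 4.04 in D replicate 1 and 7.77 in E replicate 1, and at 0, 0.370, 0 and 0 in the other library of each group. In the olfactory bulb it reached 0.283 at most. Over its locus, 1 transcript assigned to no gene had a mean of 0.539 FPKM as deposited, beside 0.644 for Sema3b. Values of Sema3b could therefore be too low, which was not tested. Replicate numbers follow only the deposited order.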
